A study of Mus musculus with 9 samples.

Results

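Spred1, Spred2, Spred3, Spry1, Spry2 and Spry4, the Spred and Sprouty inhibitors of receptor signalling, were examined together with Pik3r2, a regulatory subunit of phosphoinositide 3-kinase (PI3K), in mouse bone marrow (BM) cells labelled as endothelial cells (ECs). The 7 genes were taken by name from 46078 identifiers in the deposited table, and all 7 passed the filter on low counts that left 15937 genes for testing. Spred1 and Pik3r2 are known targets of miR-126, a microRNA (miRNA) of ECs. RNA came from untreated wild-type B6 mice, from BM cells sorted as CD45-Ter119-CD31+ and labelled as ECs, with 4 libraries of Sca-1+ cells and 5 of Sca-1- cells. The labels give no age. Libraries are called here by the last number of their label, which was 7, 13, 15 and 19 for Sca-1+ and 8, 10, 14, 16 and 22 for Sca-1-, and 15 and 16 also share a mouse number. The titles of 13 (Sca-1+), 14 and 22 (Sca-1-) also carry CD452 and that of 10 (Sca-1-) carries the same digits without CD, those of 15 and 19 (Sca-1+) and 8 and 16 (Sca-1-) carry wt, and that of 7 (Sca-1+) carries neither. The comparison asks how the message of these inhibitors differs between the fractions, which the study uses to separate ECs of arterioles (Sca-1+) from ECs of sinusoids.

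Sprouty and Spred proteins are feedback inhibitors. Growth factor receptors of the tyrosine kinase class switch on Ras and, through it, a kinase cascade that ends in ERK, and ERK activity in turn raises transcription of several Sprouty and Spred genes. Sprouty proteins act between the receptor and this cascade, whereas Spred proteins bring the Ras-inactivating protein neurofibromin to the membrane. Pik3r2 encodes p85β, which binds and restrains the catalytic subunits of class I PI3K. In ECs, miR-126 arises from an intron of Egfl7 and lowers Spred1 and Pik3r2, so that signalling from vascular endothelial growth factor (VEGF) receptors is stronger where miR-126 is high.

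The mature mouse miR-126a-3p is shown from RefSeq with its seed, bases 2 to 8 from the 5′ end, in capitals, and lies at chr2:26591402-26591423 on the plus strand of GRCm38.p6. The sites below it come from 3′ UTRs of GENCODE M21 transcripts on GRCm38, 5′ to 3′ on the mRNA strand, with the letters that pair with the seed (and the A opposite its first base) in capitals. They are the sites in Spred1 and Pik3r2 and, for comparison, in Vcam1, Crk and Plk2, other reported targets.
mmu-miR-126a-3p: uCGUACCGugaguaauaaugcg
Spred1: tttaactaaatgtaaGGTACGAa
Pik3r2: gcagcaggttttgtaCGGTACa
Vcam1: ctacatggtactgtaCGGTACGg
Crk: atttaccatattcagGGTACGAa
Plk2: agtcggacaggtggtGGTACGAa

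The Spred1 site (chr2:117178445-117178467, plus strand) pairs with bases 2 to 7 and has an A opposite base 1, and it starts at position 511 of a 3′ UTR of 4330 bases. Crk (chr11:75703659-75703681, plus strand) and Plk2 (chr13:110400335-110400357, plus strand) carry the same 7 letters, GGTACGA. Pik3r2 (chr8:70768213-70768234, minus strand) pairs with bases 3 to 8, CGGTAC, near the end of a shorter annotated 3′ UTR of 514 bases, and its longest 3′ UTR, of 597 bases, does not hold those letters. Vcam1 (chr3:116110244-116110266, minus strand) pairs with all of bases 2 to 8, CGGTACG, in a shorter annotated 3′ UTR but not in its longest. Only the sense strand of 3′ UTRs was searched. Neither the 7 letters of the Spred1 site nor those of bases 2 to 8 are in any annotated 3′ UTR of Spred2, Spred3, Spry1, Spry2 or Spry4. Of 20722 genes with a 3′ UTR, 0.159% hold CGGTACG and 0.738% hold GGTACGA in the longest one.

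The libraries held 21581653 to 25959818 counts each. Ly6a, the gene of Sca-1, stood at 874 to 1306 CPM (counts scaled for depth, with library sizes adjusted by TMM) in Sca-1+ and 0.24 to 1.49 CPM in Sca-1-, so the libraries matched their labels. Defining endothelial markers went against the label in the Sca-1- libraries. The 25 general endothelial genes took 2.03% to 2.68% of counts in Sca-1+ and 0.223% to 0.329% in Sca-1-, with 22 genes higher in Sca-1+ and 1 lower, and none was at 0 in all libraries of a fraction. The 10 sinusoidal endothelial genes took 0.24% to 0.352% of counts in Sca-1+ and 0.00481% to 0.0417% in Sca-1-, with 8 higher in Sca-1+ and 1 lower. Cdh5, which encodes VE-cadherin, averaged 264 ± 27.2 CPM (SD, n = 4) in Sca-1+ and 7.14 ± 3.92 CPM (SD, n = 5) in Sca-1-. Pecam1, the CD31 gene used in the sort, did not pass the test (1399 ± 261 against 836 ± 613 CPM, log2 fold change 0.74), but was called higher with library size only (1.38, adjusted p = 0.0043). The 16 megakaryocyte and platelet genes took 0.0461% to 0.0675% of counts in Sca-1+ and 3.21% to 6.99% in Sca-1-, with 15 of them lower in Sca-1+, and the 16 general leukocyte genes took 0.0273% to 0.0338% and 0.323% to 0.598%, with 14 lower. The 13 erythroid genes took 0.0314% to 0.0491% of counts in Sca-1+ and 0.179% to 0.518% in Sca-1-, with 10 lower in Sca-1+. The 10 smooth muscle and pericyte genes took 0.041% to 0.173% in Sca-1+ and 0.00116% to 0.00644% in Sca-1-, with 7 higher in Sca-1+. These shares move with every difference given here, and their part in the results was not tested. The shares of B cell and of neutrophil genes overlapped between the fractions. In bulk libraries fewer cells of a type and less RNA per cell cannot be told apart. The running numbers of the titles do not overlap between the fractions either, so a batch that follows them and the fraction cannot be told apart.

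Spred1, Spry2 and Spry4 were higher in Sca-1+, Spry1 and Pik3r2 were lower, and Spred2 and Spred3 did not pass the test. The 3 higher and 2 lower genes stand beside a background in which 44.8% of all genes tested differed between the fractions, 23.3% higher and 21.4% lower in Sca-1+ (edgeR's quasi-likelihood test, adjusted p under 0.05). All 3 higher genes had every Sca-1+ library above every Sca-1- library, as 43.6% of all genes tested did in one direction or the other. Scaled instead to the general endothelial genes, 1.47% of all genes were higher and 88.4% lower, and each count under that scaling below stands beside these shares. Each fold change below is Sca-1+ over Sca-1-, with its standard error.

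**Figure D1:**
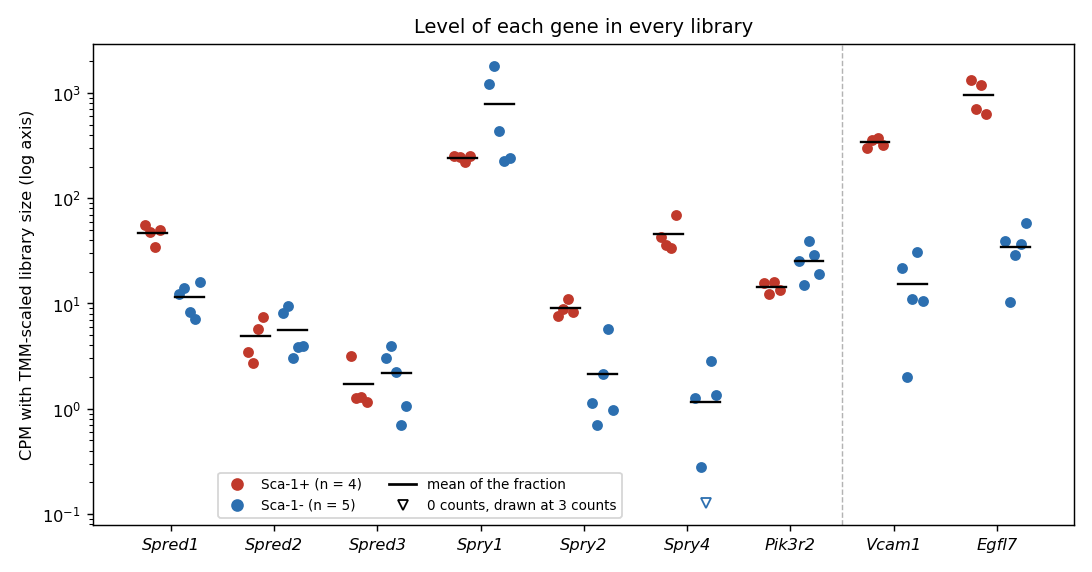
CPM (TMM-scaled library size, log axis) of the 7 genes and of Vcam1 and Egfl7 in each of 4 Sca-1+ (red) and 5 Sca-1- (blue) libraries, with the mean of each fraction as a bar. Spred1, Spry2 and Spry4 do not overlap between the fractions, whereas Spry1 spreads from 227 to 1809 CPM within Sca-1-.

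Spred1 (chr2:117121374-117182279, plus strand) was the Spred gene with the most message in both fractions. It encodes the Spred protein best known as a miR-126 target in ECs. It stood at 55.8, 47.6, 34.4 and 50.4 CPM in Sca-1+ libraries 7, 13, 15 and 19. In Sca-1- libraries 8, 10, 14, 16 and 22 it stood at 12.2, 14, 8.23, 7.11 and 16.1 CPM. The lowest Sca-1+ library lay above the highest Sca-1- library by more than the whole range within Sca-1-. The means were 47.1 ± 9.09 (SD, n = 4) and 11.5 ± 3.79 CPM (SD, n = 5), 4.09-fold higher in Sca-1+ (log2 fold change 2.03, SE 0.29, adjusted p = 0.00034). Each library gave between 194 and 1638 Spred1 counts. Scaled to the general endothelial genes instead, Spred1 was lower in Sca-1+ (log2 fold change -2.36, adjusted p = 0.00043), where the median of all genes moved to -4.25, so that Spred1 kept a place 1.89 above it.

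Spred2 (chr11:19924375-20024026, plus strand) and Spred3 (chr7:29158829-29170411, minus strand) were scarce in both fractions. Spred2 stood at 2.69 to 7.51 CPM in Sca-1+ and 3.05 to 9.36 CPM in Sca-1-, with means of 4.86 ± 2.2 and 5.65 ± 2.87 CPM (log2 fold change -0.21, SE 0.47, adjusted p = 0.74). Spred3 stood at 1.16 to 3.2 CPM in Sca-1+ and 0.697 to 3.98 CPM in Sca-1-, with means of 1.73 ± 0.987 and 2.2 ± 1.37 CPM (log2 fold change -0.34, SE 0.61, adjusted p = 0.68). Both ranges of Sca-1+ lay almost wholly within those of Sca-1-. Spred3 had 21 to 94 counts a library, and its log2 CPM had an SD of 0.66 in Sca-1+ and 1.0 in Sca-1-. Spred3 shares 202 exon bases with Ggn on the opposite strand, and how its counts treat strand is not given in the sources used here.

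Per length, Spred1 made up most of the Spred message in Sca-1+ and less in Sca-1-. Such comparisons between genes use TPM, a level computed here from counts, exon lengths and depth without TMM scaling. Spred1 held 83.7 ± 5.61% of the summed Spred TPM in Sca-1+ (77.7% to 89.9%) and 53.0 ± 10.6% in Sca-1- (43.6% to 70.0%), ranges that did not overlap. Spred2 held 13 ± 6.19% and 36.5 ± 8.57%, and Spred3 held 3.3 ± 1.49% and 10.5 ± 4.87%. The summed Spred level was 28.2 ± 5.11 TPM in Sca-1+ and 7.83 ± 2.17 TPM in Sca-1-.

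Spry4 (chr18:38586247-38601415, minus strand) had the largest fold change of the 7 genes. It stood at 43.0, 36.3, 34.0 and 68.7 CPM in Sca-1+ libraries 7, 13, 15 and 19. In Sca-1- libraries 8, 10, 16 and 22 it stood at 1.26, 0.279, 2.86 and 1.34 CPM, and library 14 had 0 counts, which allows up to 0.127 CPM. All Sca-1- libraries were far below all Sca-1+ libraries, and library 16 was the highest of them with 86 counts. The means were 45.5 ± 15.9 and 1.15 ± 1.12 CPM, 38.6-fold higher in Sca-1+ (log2 fold change 5.27, SE 0.88, adjusted p = 0.00092). Without library 16 the log2 fold change was 5.95. Under the scaling to general endothelial genes Spry4 alone of the 7 still had a positive value, though it did not pass the test there (log2 fold change 1.26, SE 0.83, adjusted p = 0.17).

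Spry2 (chr14:105891947-105896819, minus strand) was higher in Sca-1+ at a lower level. It stood at 7.63, 8.85, 11.1 and 8.32 CPM in Sca-1+ libraries 7, 13, 15 and 19. In Sca-1- libraries 8, 10, 14, 16 and 22 it stood at 1.14, 0.698, 2.16, 5.71 and 0.977 CPM. Library 16 came closest to the Sca-1+ range, and it was the highest Sca-1- library for Spry4 too. It had the smallest megakaryocyte share of the Sca-1- libraries (3.21%) and also their smallest general endothelial share (0.223%, the others 0.242% to 0.329%). Single genes did not all follow that share. Among Sca-1- libraries, 16 was the highest for Cdh5 (13.1 CPM), Vcam1 (30.6 CPM) and Ly6a (1.49 CPM). It was the lowest for Pecam1 (334 CPM), and for Egfl7 (37.0 CPM) it was neither. The means of Spry2 were 8.97 ± 1.49 and 2.14 ± 2.07 CPM, 4.15-fold higher in Sca-1+ (log2 fold change 2.05, SE 0.60, adjusted p = 0.018). Without library 16 the log2 fold change was 2.83. Sca-1- libraries held 10 to 172 Spry2 counts. The Spry2 call was lost with a block on 3 pairs of libraries (1.89, adjusted p = 0.068) and on the same 6 libraries without it (1.6, adjusted p = 0.098). It was also lost without libraries 19 and 10 (1.82, adjusted p = 0.059) or 19 and 22 (1.91, adjusted p = 0.065). Scaled to the general endothelial genes, Spry2 was lower in Sca-1+ (-2.06, adjusted p = 0.0062), and it lay 2.19 above the median of all genes there.

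Spry1 (chr3:37639947-37644598, plus strand) was the most abundant of the 7 genes in both fractions and the one with the widest spread in CPM. It stood at 249.6, 246, 221 and 253 CPM in Sca-1+ libraries 7, 13, 15 and 19. In Sca-1- libraries 8, 10, 14, 16 and 22 it stood at 1207, 1809, 439, 227 and 243 CPM. Sca-1- libraries 16 and 22 were inside the Sca-1+ range, and libraries 8, 10 and 14 were above it. The SD of log2 CPM was 0.09 in Sca-1+ and 1.36 in Sca-1-. The means were 242 ± 14.5 and 785 ± 699 CPM, 3.24-fold lower in Sca-1+ (log2 fold change -1.70, SE 0.62, adjusted p = 0.047).

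The order of the Sca-1- libraries by Spry1 was 10, 8, 14, 22 and 16, and it was the same by the megakaryocyte share, which was 6.99%, 6.4%, 5.64%, 4.42% and 3.21% of counts. It was also the same by Pecam1 (1701, 1266, 461, 417 and 334 CPM). By the general endothelial share (0.329%, 0.301%, 0.242%, 0.263% and 0.223%) only 14 and 22 changed places. Pecam1 is itself one of the general endothelial genes. Cdh5, Vcam1 and Egfl7 did not follow the Spry1 order. Library 10, the highest for Spry1, was the lowest Sca-1- library for Cdh5 (2.44 CPM), Vcam1 (2.02 CPM) and Egfl7 (10.3 CPM). The TMM factors of libraries 10 and 8 were 0.5805 and 0.6713, against 0.9884 to 1.162 in the other Sca-1- libraries. The Spry1 level in TPM, which does not use these factors, was 1057 and 787 in libraries 10 and 8 and 245 to 398 in the other Sca-1- libraries, against 255 to 307 in Sca-1+. With library size only, which leaves the TMM factors out, the log2 fold change was -0.98 and the call was lost (adjusted p = 0.079). The part of either share in the Spry1 difference was not tested. The call was also lost with a block for the shared mouse of libraries 15 and 16 (-1.49, adjusted p = 0.082) and on 3 pairs of libraries (-1.04, adjusted p = 0.18), without any 1 Sca-1+ library (log2 fold change -1.71 without 7, -1.70 without 13, -1.65 without 15 and -1.71 without 19) and without Sca-1- library 8 (-1.65) or 10 (-1.21). Spry1 also shares 710 exon bases with Gm42922 on the opposite strand, from which its reads cannot be told apart without strand.

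Within the Sprouty family, Spry1 outweighed its relatives per length in every library. It held 85.8 ± 2.32% of the summed TPM of Spry1, Spry2 and Spry4 in Sca-1+ and 98.8 ± 1.66% in Sca-1-. Spry4 held 9.73 ± 2.72% in Sca-1+, from 7.93% to 13.7%, and 0.229 ± 0.315% in Sca-1-, from 0% to 0.737%. Spry2 held 4.47 ± 1.06% and 0.957 ± 1.37%. Spry3, the fourth Sprouty gene, had 0 counts in all 9 libraries.

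**Figure D2:**
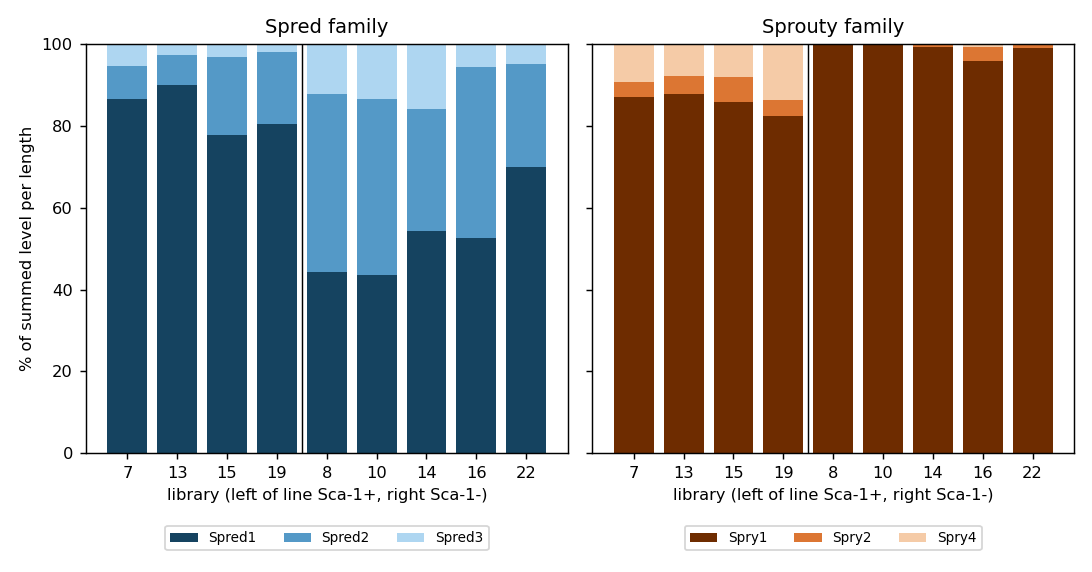
Share of the summed TPM of each family (y axis, %) held by Spred1, Spred2 and Spred3 (left) and by Spry1, Spry2 and Spry4 (right) in each library, Sca-1+ left of the line and Sca-1- right of it. Spred1 holds 77.7% to 89.9% in Sca-1+ and 43.6% to 70.0% in Sca-1-, and Spry4 shows as a visible band in the Sca-1+ libraries.

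Pik3r2 (chr8:70768176-70776713, minus strand) was lower in Sca-1+, opposite to Spred1. It stood at 15.6, 12.3, 16.1 and 13.3 CPM in Sca-1+ libraries 7, 13, 15 and 19. In Sca-1- libraries 8, 10, 14, 16 and 22 it stood at 25.2, 15, 38.8, 29.0 and 18.9 CPM. Library 10 fell inside the Sca-1+ range and the other Sca-1- libraries were above it. The means were 14.3 ± 1.81 and 25.4 ± 9.25 CPM, 1.77-fold lower in Sca-1+ (log2 fold change -0.82, SE 0.29, adjusted p = 0.042). The call was lost with a block for the shared mouse of libraries 15 and 16 (-0.84, adjusted p = 0.052), without any 1 Sca-1+ library (-0.86 without 7, -0.75 without 13, -0.88 without 15 and -0.78 without 19), without Sca-1- library 16 (-0.78) and with libraries scaled by their size alone (-0.49, adjusted p = 0.37). Pik3r2 shares 45 exon bases with 6330537M06Rik on the opposite strand.

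In Sca-1+ the order of TPM was Spry1 (284), Spry4 (32.4), Spred1 (23.7), Spry2 (14.6), Pik3r2 (11.7), Spred2 (3.55) and Spred3 (0.958). The ranges of neighbours from Spry4 to Pik3r2 overlapped, and Spry1, Spred2 and Spred3 each stood apart. In Sca-1- the order was Spry1 (553), Pik3r2 (15.8), Spred1 (4.27), Spry2 (2.9), Spred2 (2.79), Spred3 (0.776) and Spry4 (0.687). The ranges of neighbours from Pik3r2 to Spred2 overlapped there, as did those of Spred3 and Spry4. Spry4 thus went from the second place to the last.

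**Figure D3:**
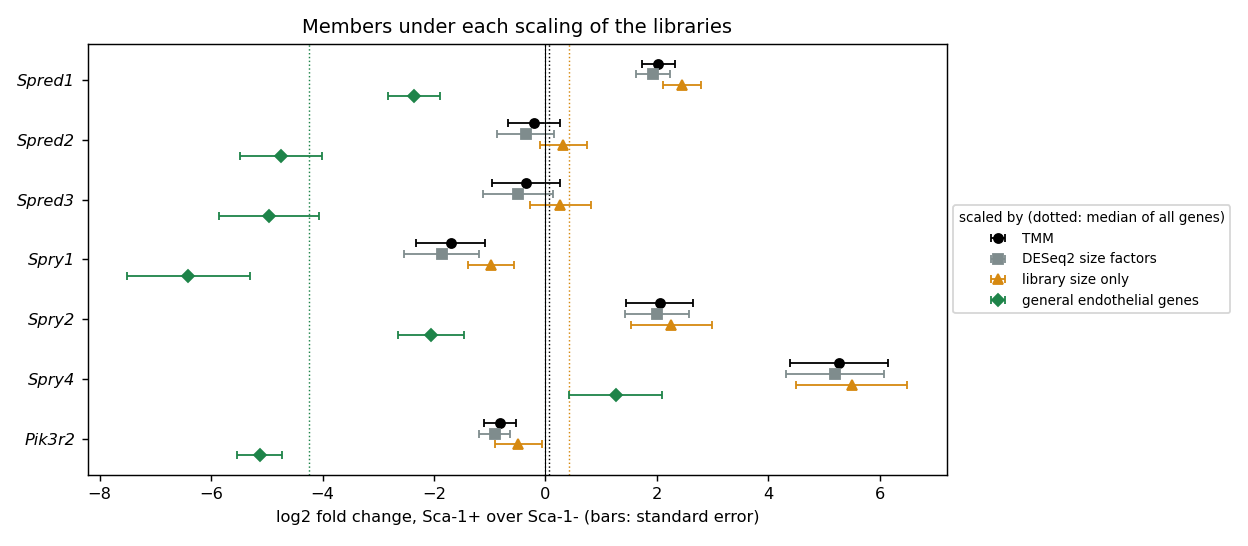
Log2 fold change, Sca-1+ over Sca-1-, of the 7 genes (x axis, bars are standard errors) with libraries scaled by TMM, DESeq2 size factors, library size only or the general endothelial genes, and the median of all genes under each as a dotted line. Spred1 and Spry2 turn from higher to lower under the endothelial scaling, where the median of all genes is -4.25, and Spred2 and Spred3 turn from below to above 0 with library size only, where it is 0.43.

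The host of miR-126 was much higher in Sca-1+. Egfl7, which encodes a secreted endothelial protein, stood at 1314, 705, 1187 and 632 CPM in Sca-1+ libraries 7, 13, 15 and 19. It stood at 39.0, 10.3, 28.6, 37.0 and 57.7 CPM in Sca-1- libraries 8, 10, 14, 16 and 22. The fractions did not overlap (27.8-fold higher in Sca-1+, log2 fold change 4.80, SE 0.49, adjusted p = 6.1e-05), and scaled to the general endothelial genes, a list that holds Egfl7, the value was 0.64 (adjusted p = 0.082). The row of the miR-126 hairpin, Mir126a, had 0 counts in all 9 libraries. Libraries of poly(A) RNA do not measure mature miRNA, so the level of miR-126 is not known from these data. The study reports more miR-126, and less Vcam1 and Spred1, in its Sca-1high than in its Sca-1low ECs, and gives these apart from its transcriptomes. Here the libraries are labelled Sca-1+ and Sca-1-, and the Sca-1- ones were poor in endothelial message, so measure and samples may differ. In them Spred1, and Vcam1 below, went the opposite way with TMM scaling, and why was not tested. Egfl7 shares exon bases with Gm20532 on its own strand (264 bases, 0 counts in every library) and with Agpat2 (64 bases) and Mir126b (58 bases) on the other. All 73 bases of Mir126a also lie in an Egfl7 exon on the same strand. How the counting treated reads that overlap several genes is not given in the sources used here. The 0 counts of Mir126a may thus come from the counting itself.

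Of 18 reported miR-126 targets that were tested, 11 (61.1%) were higher and 3 (16.7%) lower in Sca-1+ with a median log2 fold change of 1.77, beside 23.3% and 21.4% of all genes, and scaled to the general endothelial genes 1 was higher and 12 (66.7%) were lower, beside 88.4% of all genes. Without Spred1 and Pik3r2, 10 of 16 were higher and 2 lower with a median of 1.79, beside a median of 0.07 over all genes tested. Vcam1, an adhesion receptor for leukocytes, stood at 301 to 374 CPM in Sca-1+ and 2.02 to 30.6 CPM in Sca-1- (22.2-fold higher, log2 fold change 4.47, SE 0.62, adjusted p = 0.00031), and scaled to the general endothelial genes it was at 0.37 (adjusted p = 0.46). Plk2, a polo-like kinase, averaged 2686 ± 210 and 83.4 ± 42.9 CPM (log2 fold change 5.01, adjusted p = 5.1e-05). Rgs3, a regulator of G protein signalling (152 ± 8.9 against 12.7 ± 6.76 CPM, log2 fold change 3.58), and the chemokine Cxcl12 (917 ± 539 against 171 ± 107 CPM, 2.42) were also higher. Crk, an adaptor of receptor signalling (278 ± 65.6 against 174 ± 63.5 CPM, log2 fold change 0.67, adjusted p = 0.088), and the metalloprotease Adam9 (94.8 ± 14.6 against 242 ± 219 CPM, -1.35, adjusted p = 0.093) did not pass the test, but Crk passed it without Sca-1- library 10 (0.81) and with library size only (1.17, adjusted p = 0.0017), and Adam9 passed it without Sca-1- library 16 (-1.61) and with DESeq2 (-1.52, adjusted p = 0.034). The list was written from general knowledge of reports in several cell types.

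The seed match gives classes of genes whose members are set by sequence alone. CGGTACG was the planned match, and GGTACGA was chosen after seeing the data. The classes share at least the 12 tested genes with CGGTACGA. Of 24 tested genes with CGGTACG in the longest 3′ UTR, 4 were higher and 8 lower in Sca-1+ with a median log2 fold change of -0.41. Of 117 with GGTACGA, the kind of match in Spred1, 17 were higher and 27 lower with a median of -0.06. Over all 13242 tested genes with a 3′ UTR, 24.4% were higher and 21.8% lower with a median of 0.08. The shares with CGGTACG were 16.7% and 33.3%, and those with GGTACGA were 14.5% and 23.1%. The CGGTACG class leaves out Vcam1, whose match is not in its longest 3′ UTR. With any annotated 3′ UTR, 6 of 30 tested genes with CGGTACG were higher and 9 lower, with a median nearer to that of all genes (-0.19). With GGTACGA in any annotated 3′ UTR, 22 of 126 were higher and 28 lower with a median of -0.01.

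**Figure D4:**
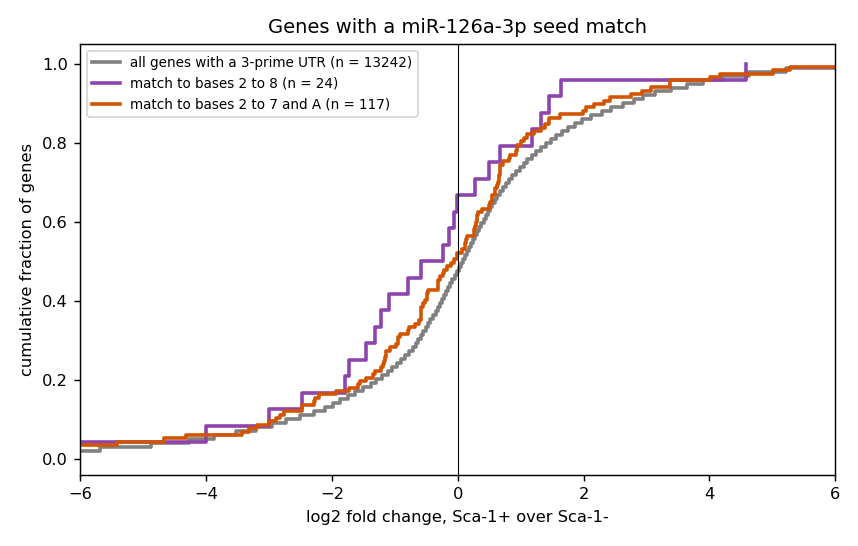
Cumulative fraction of genes (y axis) by log2 fold change, Sca-1+ over Sca-1- (x axis), for 13242 tested genes with a 3′ UTR (grey, drawn from percentiles), 24 with a match to bases 2 to 8 of miR-126a-3p (purple) and 117 with a match to bases 2 to 7 and A (orange). The medians are 0.08, -0.41 and -0.06, and at 0 the curve of the 24 genes lies above the grey one. The 24 and the 117 are classed by the longest 3′ UTR and share at least 12 genes.

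The receptors whose signals Sprouty and Spred proteins dampen were mostly higher in Sca-1+ where they passed the test, with 7 of 20 (35.0%) higher, 2 (10%) lower and a median log2 fold change of 1.69, beside 23.3%, 21.4% and 0.07 over all genes. Scaled to the general endothelial genes, a list that holds Kdr, Flt1, Tek and Tie1, 1 was higher and 12 (60%) were lower, beside 88.4% of all genes. The VEGF receptor Kdr (806 ± 125 against 60.4 ± 17.4 CPM, log2 fold change 3.74) and its relative Flt1 (516 ± 116 against 8.53 ± 1.43 CPM, 5.92) were higher in Sca-1+. The angiopoietin receptor Tek (547 ± 81.6 against 24.2 ± 13.7 CPM, 4.5), its relative Tie1 (679 ± 110.2 against 73.4 ± 18.8 CPM, 3.21) and Flt4, the receptor for VEGF-C (87.5 ± 26.8 against 22.4 ± 13.1 CPM, 1.97), were higher too. The stem cell factor receptor Kit did not pass the test (34.9 ± 18.6 against 64.6 ± 38.8 CPM, -0.89, adjusted p = 0.22). Leaving out Sca-1- library 8, 10, 16 or 22 left 1 gene lower, and without Sca-1+ library 15 Flt4 missed the threshold (1.84, adjusted p = 0.052).

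In the core of the pathway from adaptors to ERK, 6 of 28 tested genes (21.4%) were higher and 9 (32.1%) lower with a median log2 fold change of -0.36, where the share of higher genes is near the 23.3% of all genes and that of lower ones stands beside 21.4%. Scaled to the general endothelial genes all 28 were lower, beside 88.4% of all genes. The adaptor Gab1 was lower in Sca-1+ (54.5 ± 12.5 against 202 ± 190.1 CPM, -1.89, adjusted p = 0.04). The Ras relative Rras was higher (276 ± 59.6 against 46.3 ± 10.4 CPM, 2.57, adjusted p = 3.8e-05). The call for Gab1 was lost under 13 of 23 alternatives, among them library size only (-1.18, adjusted p = 0.072), voom (-1.36), a block for the shared mouse (-1.57) and one on 3 pairs of libraries (-0.91). It was lost without any 1 Sca-1+ library (-2.03 without 7, -1.76 without 13, -1.85 without 15 and -1.91 without 19) and without Sca-1- library 8 (-1.94) or 10 (-1.28).

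Other inhibitors of the pathway, with partners of the Spred and Sprouty proteins, counted 8 of 21 (38.1%) higher in Sca-1+ and 7 (33.3%) lower with a median of 0.47, beside 23.3%, 21.4% and 0.07 over all genes, and scaled to the general endothelial genes 0 were higher and 14 (66.7%) lower, beside 88.4% of all genes. Cav1, the caveolin that binds Sprouty proteins (2324 ± 913 against 134 ± 68.6 CPM, 4.12), and Errfi1, an inhibitor of the EGF receptor (181 ± 64 against 18.0 ± 13.9 CPM, 3.34), were higher in Sca-1+. Rasa3, a Ras GTPase-activating protein of platelets (43.9 ± 2.43 against 2509 ± 2060.5 CPM, -5.84), and the docking proteins Dok1 (12.1 ± 1.68 against 202 ± 172 CPM, -4.06) and Dok2 of blood cells (1.01 ± 0.381 against 414 ± 78.2 CPM, -8.67) were lower. Rasgrp3, an exchange factor that activates Ras and so is no inhibitor, did not pass the test (0.26, adjusted p = 0.74). Nf1, which encodes neurofibromin and was chosen after its values were seen, was lower in Sca-1+ (7.12 ± 0.592 against 20.8 ± 17.0 CPM, -1.54, adjusted p = 0.048). Its call was lost under 15 of 23 alternatives, among them library size only (-0.87, adjusted p = 0.13), voom (-1.0), a block for the shared mouse (-1.44) and one on 3 pairs of libraries (-0.95). It was lost without any 1 Sca-1+ library (-1.51 without 7, -1.54 without 13, -1.6 without 15 and -1.52 without 19) and without Sca-1- library 8 (-1.41) or 10 (-1.19).

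Genes that respond to ERK activity were mostly higher in Sca-1+. With the 6 Spred and Sprouty genes left out, 11 of 15 (73.3%) were higher beside 23.3% of all genes, 0 were lower (beside 21.4% of all genes, also 0 at an unadjusted p under 0.05, and 0 by DESeq2 and by voom) and the median log2 fold change was 2.60, while with them 14 of 21 were higher and 1, Spry1, was lower with a median of 2.05. Scaled to the general endothelial genes, 0 of the 21 were higher and 17 (81%) lower, beside 88.4% of all genes. The phosphatase Dusp1 (4143 ± 795 against 411 ± 107 CPM, 3.34) and the transcription factors Fos (5741 ± 1006 against 660.3 ± 236 CPM, 3.12) and Egr1 (3683 ± 2159 against 608 ± 209.6 CPM, 2.60) were higher in Sca-1+, as was Ier3, an immediate early gene (807 ± 341 against 101 ± 54.7 CPM, 3.0). Phlda1 did not pass the test (370.4 ± 38.4 against 404 ± 285 CPM, -0.12, adjusted p = 0.85). Dusp6, the cytoplasmic ERK phosphatase, was chosen after its values were seen and was higher in Sca-1+ (415 ± 63.2 against 62.0 ± 10.9 CPM, 2.74, adjusted p = 2.1e-05).

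Among the other PI3K subunits and regulators, 4 of 18 (22.2%) were higher in Sca-1+, a share near the 23.3% of all genes, and 6 (33.3%) were lower, beside 21.4% (median -0.27). Scaled to the general endothelial genes, of the 19 with Pik3r2 0 were higher and 17 (89.5%) lower, beside 88.4% of all genes. Pik3r3, which encodes the regulatory subunit p55γ, was higher in Sca-1+ (99.4 ± 31.2 against 2.71 ± 1.8 CPM, 5.19, adjusted p = 0.00083), as was Pik3ip1, an inhibitor of PI3K (66.5 ± 7.64 against 23.3 ± 10 CPM, 1.51, adjusted p = 0.0025). The catalytic subunit Pik3cb (23.9 ± 15.9 against 91.4 ± 42.6 CPM, -1.93, adjusted p = 0.011) and Inpp5d, the lipid phosphatase SHIP1 of blood cells (35.4 ± 8.37 against 340.1 ± 226 CPM, -3.27, adjusted p = 0.00059), were lower. Akt1, the kinase that acts after PI3K, did not pass the test (0.59, adjusted p = 0.086), though it did without Sca-1+ library 15 (0.79).

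**Figure D5:**
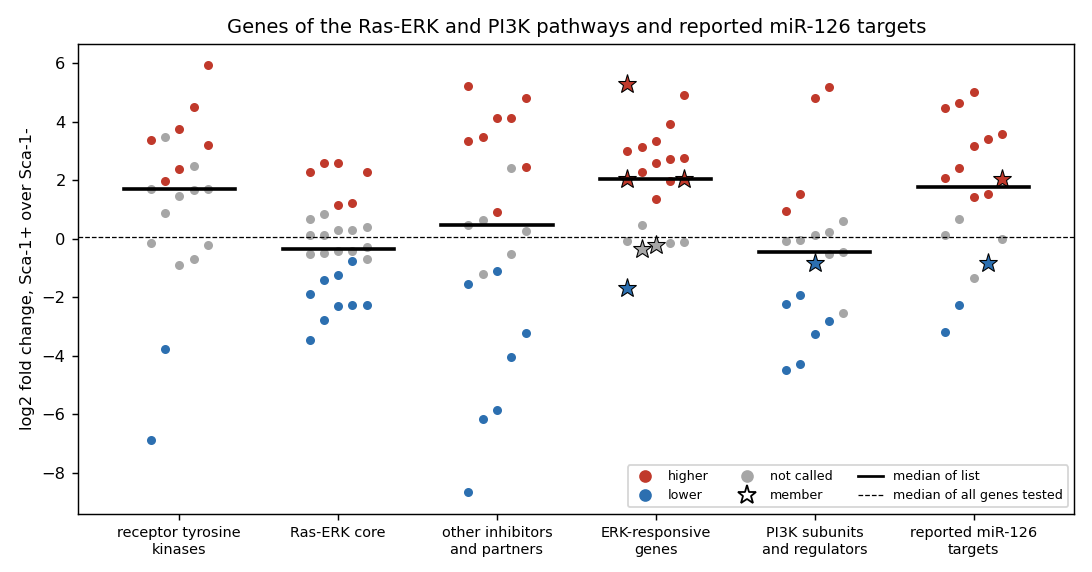
Log2 fold change, Sca-1+ over Sca-1- (y axis), of each tested gene in 6 lists (x axis), coloured by its call, with the 7 genes described above as stars, the median of each list as a solid line and that of all genes tested, 0.07, as a dashed line. The medians run from -0.47 for PI3K subunits and regulators, Pik3r2 included, to 2.05 for the ERK-responsive genes, and all lists shift down under the endothelial scaling.

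The 2 genes whose levels ran most like each of the 7 over the 9 libraries were found by the root mean square difference of centred log2 CPM among 9867 candidates. They were Rnf215 (0.25) and Arl15 (0.28) for Spred1, and Pik3r6 (0.42) and Ifi204 (0.43) for Spry4. For Spry1 they were 3110062M04Rik (0.19) and Crebrf (0.19), and for Spry2 4632428N05Rik (0.35) and Smpdl3a (0.36). For Pik3r2 they were Fech (0.25) and Ppp2r4 (0.26), for Spred2 Zcchc6 (0.26) and Ano6 (0.28), and for Spred3 Cxx1c (0.35) and Atrnl1 (0.35). The distances were smallest for Spry1 and largest for Spry4, whose log2 CPM had an SD of 2.05 in Sca-1-, the largest of the 7.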

How the data were processed

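The authors deposited 1 table of raw read counts per Ensembl gene for all 9 libraries, made from 2 ng of total RNA a sample with the SMART-Seq v4 kit. The submitters' processing notes name STAR, featureCounts and mm10, without versions; the strand setting is not given in the sources used here. Without molecular identifiers PCR copies were counted, and floors (3 counts) cover counting error only. Whether libraries came from separate mice is not stated throughout, so p-values measure the spread between these libraries. No 2 libraries of a fraction were alike within counting noise (chi-square per degree of freedom 41.5 or more).

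The fractions were compared with edgeR 4.0.16 in R 4.3.3 (filterByExpr, TMM, quasi-likelihood F-test, two-sided, Benjamini-Hochberg adjustment over 15937 genes, threshold 0.05). The test was tried on simulated data in which far fewer genes changed than differed here, as many up as down. That trial therefore says nothing about the choice of scaling. Standard errors came from the F statistic, and the prior count of log2 CPM was 2. TPM used exon lengths of GENCODE M21. Alternatives changed scaling, filter, test (DESeq2 1.42.0, limma 3.58.1 voom), libraries, blocks, seed match and gene length. The 7 genes and all lists were chosen with earlier results of these data known. Named were the 7 genes, Vcam1, Egfl7, Mir126a, Ly6a, Pecam1, Cdh5, up to 6 genes a list by mean CPM, and the 2 genes most like each of the 7 with an average log2 CPM of at least 3. A RefSeq entry for miR-126a-5p and protein sequences were not used here. Some genes the rule would name are not reported here.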

Additional observations from a re-analysis of the deposited data

Results flagged for a closer look

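The highest or lowest library of a fraction was tested for its distance from the rest with Dixon's criterion in 76 groups of 4 or 5 libraries, and 4 met it, where chance gives about 1 in 20. Spred3 in Sca-1+ library 7 stood at 1.72 log2 CPM (94 counts), with the other Sca-1+ libraries at 0.31 to 0.44. Egr1 in Sca-1+ library 19 stood at 12.75 (others 11.24 to 11.47). Flt4 in Sca-1- library 10 stood at 1.21 (others 4.28 to 5.22). Pik3r3 in Sca-1- library 14 stood at -3.63, the value of 0 counts, with the others at 1.17 to 2.3.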

How the results depend on the processing

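Of 23 alternatives, 22 kept the direction and call of Spred1 and of Spry4, 18 those of Spry2, 13 those of Pik3r2 and 9 those of Spry1. Scaling to the general endothelial genes moved the median of all genes by -4.305 and scaling by library size only by 0.353. Under the first, log2 fold changes were -2.36 for Spred1, -2.06 for Spry2, 1.26 for Spry4 (not called), and -4.75 and -4.96 for Spred2 and Spred3 (both called lower). Under library size only, Spred2 was at 0.32, Spred3 at 0.27, Spry1 at -0.98 and Pik3r2 at -0.49, none called. No replicate number is shared by both fractions in the labels. Correlations between libraries were taken over genes on the deviations of log2 CPM from the mean of each library's own fraction, not on the levels themselves. Consecutive label numbers correlated at 0.147 (7 and 8), 0.148 (13 and 14) and 0.042 (15 and 16). The other combinations of a Sca-1+ with a Sca-1- library ran from -0.191 (13 and 8) to 0.065 (19 and 8). So 7 with 8 and 13 with 14 were the most alike in these deviations. Libraries 15 and 16, with their shared mouse number, were within the range of the others. Whether these are pairs is not settled by such values, and the main test used no pairs. With a replicate block on those 3 pairs, Spred3 was at 0.03, and Spry2 (1.89), Spry1 (-1.04) and Pik3r2 (-1.07) were not called. Without the block on the same 6 libraries Spry2 (1.6) and Spry1 (-1.39) were not. A replicate block for the shared mouse of 15 and 16 gave -1.49 for Spry1 and -0.84 for Pik3r2, not called. Without libraries 19 and 10, Spred3 was at 0.07, and Spry2 (1.82) and Spry1 (-1.22) lost their calls. Without 19 and 22, chosen after seeing the data, Spry2 (1.91), Spry1 (-1.95) and Pik3r2 (-0.88) did. With no filter, Spry1 (-1.67) and Pik3r2 (-0.80) did, and with voom Spry1 (-1.23). The causes were not tested.

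Leaving out 1 library at a time gave 1.82 to 2.18 for Spred1, 4.87 to 5.95 for Spry4, 1.78 to 2.83 for Spry2, -2.01 to -1.21 for Spry1, -1.02 to -0.72 for Pik3r2, -0.50 to -0.01 for Spred2 and -0.82 to -0.09 for Spred3. It left 1 to 2 receptors lower and 0 to 1 ERK-responsive genes lower.

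Genes that differ numbered 4340 (2265 higher, 2075 lower) with the block on 3 pairs and 14321 (234 and 14087) with the endothelial scaling. That scaling gave 1 and 12 receptors, 0 and 28 core genes, 0 and 14 other inhibitors, 0 and 17 ERK-responsive genes, 0 and 17 PI3K genes, 1 and 12 reported targets and 0 and 23 seed-matched genes higher and lower, and each count of 0 stayed 0 at an unadjusted p under 0.05. With the block on 3 pairs, 1 receptor, 5 core genes, 4 other inhibitors, 0 ERK-responsive genes and 4 seed-matched genes were lower, and 2 PI3K genes and 2 seed-matched genes higher. The 6 libraries without it gave 1 receptor, 5 core genes and 0 ERK-responsive genes lower. ERK-responsive genes lower were also 0 with library size only, voom, no filter, the block for 1 mouse and both pairs of libraries left out, and voom gave 11 receptors higher. Library size only gave 5 seed-matched genes lower. With the match to bases 2 to 8 and A, 1 was higher and 3 lower, and with bases 2 to 7 and A, chosen after seeing the data, 17 and 27.

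The other named genes gave 828 values under alternatives, of which 759 kept direction and call, 34 lost the call, 9 gained it and 26 changed sign. The calls of Tek (0.33), Pik3r3 (0.96), Vcam1 (0.37) and Egfl7 (0.64) ended under the endothelial scaling and that of Cxcl12 (1.74) with the block on 3 pairs. These changed sign under the endothelial scaling: Kdr (-0.74), Flt4 (-2.14), Tie1 (-1.09), Crk (-3.83), Rras (-1.78), Errfi1 (-0.84), Cav1 (-0.01), Rasgrp3 (-4.42), Dusp1 (-1.12), Dusp6 (-1.64), Egr1 (-1.67), Fos (-1.10), Ier3 (-1.54), Pik3ip1 (-2.68), Akt1 (-3.71), Rgs3 (-0.70), Cxcl12 (-1.94) and Pecam1 (-3.90). Genes near 0 changed sign elsewhere, none of them called: Phlda1 with library size only (0.48), voom (0.13), both blocks (0.21 and 0.01), 6 libraries (0.11), without 19 and 10 (0.24) or without 10 (0.30), and Rasgrp3 without 14 (-0.09). Leaving out 1 library at a time gave -0.33 to 0.30 for Phlda1 and -0.09 to 0.66 for Rasgrp3.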
